A study of Homo sapiens with 6 samples.

Results

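AP-1 is a dimeric transcription factor built from proteins of the FOS and JUN families. The genes described here are its subunits FOS, FOSB, FOSL1, FOSL2, JUN, JUNB and JUND, together with EGR1, ATF3 and IER2. These 10 genes were picked by symbol from the 56595 symbols of the deposited expression table, and each stood on 1 row. The values are RNA-seq measurements in FPKM (fragments per kilobase of transcript, adjusted for library size), so levels of different genes are given per length. All cells came from H1, a human embryonic stem cell (hESC) line, and were collected at day 8 of hematopoietic differentiation. The study compared wild-type H1 cells with cells lacking MSX2, a homeobox transcription factor, to ask how its loss changes gene expression during the endothelial-to-hematopoietic transition.

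The WT group was unedited H1 in 2 libraries, numbered 1 and 2. The MSX2_KO group was H1 edited with CRISPR/Cas9 and guide RNAs against the second exon of MSX2, delivered by lentivirus and followed by puromycin selection. It held 2 clones grown from single cells, which the table calls 1# and 2#, each in 2 libraries that carry the same replicate numbers. Whether WT cells went through infection or selection is not given in the sources used here. The labels name CD31+ cells for the MSX2_KO samples only, while the results of the study speak of CD31+ cells from both genotypes. All samples share a growth protocol with activin A, BMP4, VEGF and bFGF that also mentions HAND1 overexpression, which the study does not describe. A letter in the labels, F for replicate 1 and S for replicate 2, runs through WT and both clones, and what it stands for is not given. Nothing in the labels ties the replicates to separate cultures, so p-values measure the spread between these libraries, which may be technical.

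Immediate early genes are transcribed within minutes of a stimulus such as serum, growth factors or stress, without new protein synthesis, and their mRNAs are short-lived. FOS proteins cannot pair with each other and need a JUN partner to bind DNA, whereas JUN proteins can also pair among themselves. AP-1 is known to take part in endothelial and blood cell development.

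Promoter sequences are shown for the 6 of these genes that passed the test between replicate numbers, of which FOS, FOSB, JUND, JUN and JUNB were higher in replicate 2 and EGR1 was lower. Each is the 120 bases upstream of the RefSeq start site on GRCh38.p14, written 5′ to 3′ on the gene's strand. Capitals mark matches on either strand to the cAMP response element core TGACGT, to the JUN-type site TGACATCA, or to a CArG box, the site of serum response factor. The motifs were picked after the sequences had been seen.
FOS (chr14:75278708-75278827, plus strand): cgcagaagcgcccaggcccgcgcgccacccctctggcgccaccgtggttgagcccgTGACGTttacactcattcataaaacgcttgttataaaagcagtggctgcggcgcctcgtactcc
FOSB (chr19:45467876-45467995, plus strand): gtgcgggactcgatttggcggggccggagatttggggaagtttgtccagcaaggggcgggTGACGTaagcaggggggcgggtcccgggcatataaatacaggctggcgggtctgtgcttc
JUND (chr19:18281623-18281742, minus strand): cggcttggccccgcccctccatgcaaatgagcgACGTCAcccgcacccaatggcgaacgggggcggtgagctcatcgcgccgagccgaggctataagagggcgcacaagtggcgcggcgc
JUN (chr1:58784048-58784167, minus strand): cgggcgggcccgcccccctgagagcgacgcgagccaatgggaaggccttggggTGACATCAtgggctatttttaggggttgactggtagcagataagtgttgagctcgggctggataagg
JUNB (chr19:12791366-12791485, plus strand): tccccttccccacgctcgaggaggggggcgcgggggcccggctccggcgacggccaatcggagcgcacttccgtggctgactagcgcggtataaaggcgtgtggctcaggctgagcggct
EGR1 (chr5:138465359-138465478, plus strand): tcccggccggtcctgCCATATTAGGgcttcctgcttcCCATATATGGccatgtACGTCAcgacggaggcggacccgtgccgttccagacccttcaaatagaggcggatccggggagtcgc

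RefSeq promoters, which run from 250 bases before to 50 bases after the start, were matched for 9 of the 10 genes. FOSL1 had no entry. The core TGACGT was present in 5 of the 9, namely FOS, FOSB, FOSL2, JUND and EGR1, and in 7.98% of all 35116 promoters of this length. It began 64 bases upstream of the start in FOS, 60 in FOSB and 66 in FOSL2. The JUN-type site was found in JUN, 67 bases upstream, and in 1 of the ATF3 promoters, against 2.61% of all promoters. EGR1 carried 2 CArG boxes, 105 and 83 bases upstream, where 1.29% of all promoters hold any. The core therefore stood both in genes that were higher in replicate 2 and in EGR1, which was lower. The full element TGACGTCA, which contains the core, was found in JUND alone of the 9 and in 1.85% of all promoters. The AP-1 site TGANTCA was found in FOSL2 alone, after the start, and in 7.71%. None of the letters searched were in the JUNB or IER2 windows, which says nothing of the factors that act there. Sites more than 250 bases upstream were not searched. A gene without a match here, to a CArG box or another motif, may therefore carry one further out.

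The FPKM of a library summed to between 555286 and 617120, and between 13366 and 14222 rows reached 1 FPKM. Counts were not analysed here, so the depth is unknown. MSX2 itself stood at 3.64 and 1.44 FPKM in WT, 18.0 and 5.62 in clone 1#, and 31.8 and 6.69 in clone 2#. Its mRNA was thus higher in the libraries labelled MSX2_KO, at 3.9 to 8.72 times the WT library of the same number. The level of this mRNA therefore does not check the labels, and why it was higher was not tested. The endothelial gene PECAM1, which encodes CD31, was present in all 6 libraries at 186 to 258 FPKM.

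Some of these genes differed between replicate numbers, and some differed between genotypes when the replicate number was a block. The main genotype test had no block and none of the 10 passed it, and the fit with the block was its alternative. With the replicate number as a block, 5 of the 10 were higher in the libraries labelled MSX2_KO than in WT (FOS, FOSB, FOSL1, JUNB and ATF3) and none was lower, where 6.11% of the 15895 genes tested were higher, 3.74% lower and 9.85% changed in either direction. Between replicate numbers, 6 of the 10 changed. FOS, FOSB, JUN, JUNB and JUND were higher in replicate 2 and EGR1 was lower, where 34.6% of all genes tested changed, 15.6% upwards and 18.9% downwards. FOS, FOSB and JUNB passed both tests, which 4.55% of all genes tested did, and FOSL2 and IER2 passed neither. The 10 genes were chosen with earlier results of these data known, so these counts and shares are a description. The 5 genotype calls became 0 to 3 when a library was left out (0 without WT replicate 1) and 0 with no filter on low values, while the 1566 calls over all genes became 665 to 899 and 507. Without the block, none of the 10 passed for genotype, where 1.28% of all genes did and 3 of the 10 (FOSL1, JUNB and ATF3) had an unadjusted p under 0.05. Tests were moderated linear models (limma) on log2(FPKM + 1) with Benjamini-Hochberg adjustment over all genes tested, and passing means an adjusted p under 0.05. An exact permutation test cannot go below 0.0667 for 2 against 4 libraries or 0.1 for 3 against 3 (two-sided). When labels are exchanged only within a replicate number or within a line, the limits are 0.111 for genotype and 0.25 (two-sided) for replicate number. The tests and these limits take each library as a unit, although the libraries come from only 3 lines, WT and 2 clones. With WT as 1 line, the genotype p-values do not measure how far lines of the same genotype differ.

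**Figure D1:**
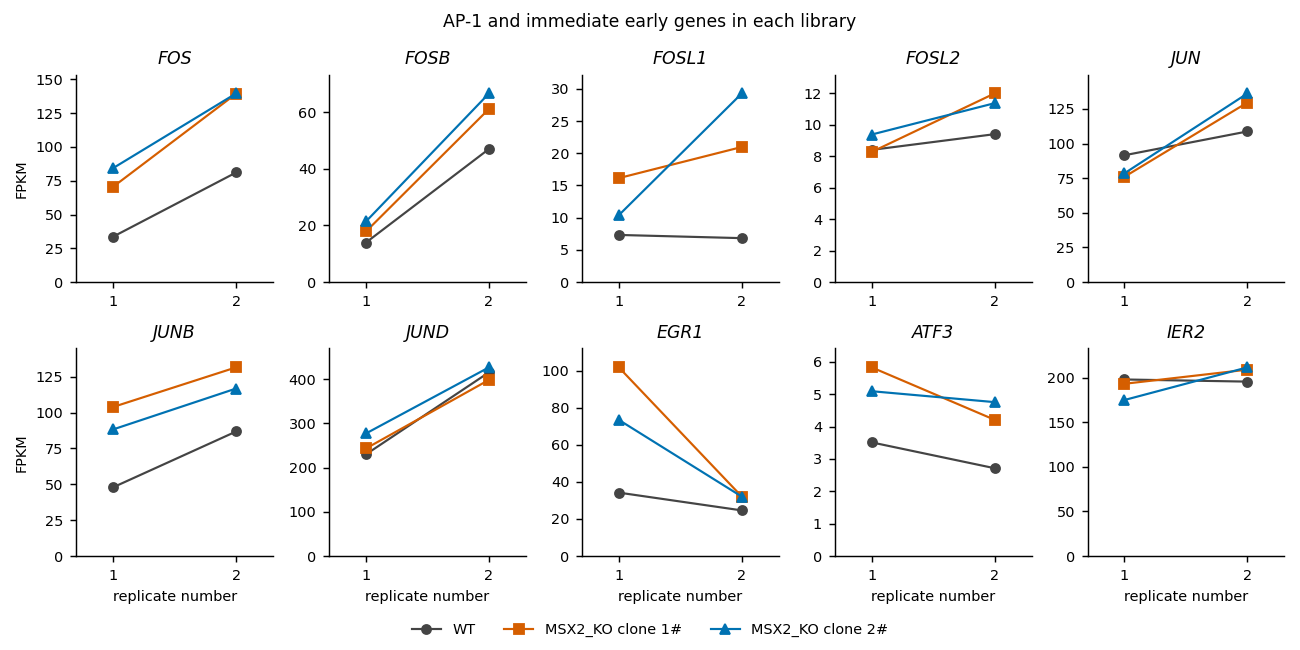
FPKM (vertical axes, from 0, 1 scale per gene) of each gene in each of the 6 libraries against the replicate number (horizontal axes), with 1 line for WT and 1 for each MSX2_KO clone. FOS, FOSB, FOSL2, JUN, JUNB and JUND climb from replicate 1 to replicate 2 in all 3 lines and EGR1 and ATF3 drop in all 3. The shares of all genes that climb or drop in all 3 lines were not counted. FOS, FOSB, FOSL1, JUNB, EGR1 and ATF3 lie lowest in WT at both numbers.

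FOS, the founding member of its family, moved with both factors. It stood at 33.6 FPKM in WT replicate 1 and 81.1 in WT replicate 2. In clone 1# it stood at 70.6 and 139 FPKM, and in clone 2# at 84.4 and 140. Every clone library was above the WT library of the same number, but the replicate 1 clone libraries lay around WT replicate 2, so the groups overlapped. Within replicate 1 the ratio to WT was 2.10 in clone 1# and 2.51 in clone 2#, and within replicate 2 it was 1.72 in both. The means were 57.4 ± 33.6 FPKM in WT (SD, n = 2) and 108 ± 36.3 in MSX2_KO (SD, n = 4). FOS was higher in MSX2_KO by 0.97 ± 0.12 on the log2(FPKM + 1) scale (SE, adjusted p = 0.00652 with the block and 0.448 without it). FOS was also higher in replicate 2 than in replicate 1, by 0.98 ± 0.11 (SE, adjusted p = 0.00233), close in size to the genotype difference. The genotype call was kept when any 1 library was left out, except WT replicate 1, without which the difference was 0.77 and the adjusted p 0.051.

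FOSB, a close relative of FOS whose mRNA is also short-lived, followed the replicate number above all. Its values were 14.0 and 47.0 FPKM in WT, 17.9 and 61.1 in clone 1#, and 21.4 and 66.6 in clone 2#, replicate 1 first. All replicate 2 libraries lay above all replicate 1 libraries, and the ratio of replicate 2 to replicate 1 was 3.37 in WT, 3.42 in clone 1# and 3.11 in clone 2#. The rise was 1.66 ± 0.09 on the log2(FPKM + 1) scale (SE, adjusted p = 0.000683), the greatest of the 10. Within each number both clones were above WT, and FOSB was higher in MSX2_KO by 0.45 ± 0.10 (SE, adjusted p = 0.0383 with the block and 0.912 without). That genotype call was lost whichever of the 6 libraries was left out, with adjusted p from 0.0586 to 0.161.

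FOSL1, which encodes FRA1, was set apart by genotype. It was at 7.32 and 6.82 FPKM in WT, at 16.1 and 21.0 in clone 1#, and at 10.4 and 29.3 in clone 2#. All 4 clone libraries were above both WT libraries, and FOSL1 was higher in MSX2_KO by 1.23 ± 0.28 on the log2(FPKM + 1) scale (SE, adjusted p = 0.0458 with the block and 0.234 without). Among the 10 genes its genotype difference had the widest spread, since clone 2# ran from 1.42 times WT in replicate 1 to 4.29 times WT in replicate 2. The call remained in only 1 of the 6 fits with a library left out, that without clone 2# replicate 1 (adjusted p = 0.0327), and without WT replicate 2 the difference was 0.75 (adjusted p = 0.264). The replicate difference was 0.56 ± 0.26 (SE, adjusted p = 0.149).

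FOSL2, which encodes FRA2, was the steadiest of the family. It ranged from 8.26 to 12.0 FPKM over the 6 libraries, with 8.39 and 9.39 in WT. Its difference was 0.17 ± 0.11 on the log2(FPKM + 1) scale between genotypes (SE, adjusted p = 0.358 with the block) and 0.30 ± 0.10 between replicate numbers (SE, adjusted p = 0.0654). Each line had its higher FOSL2 value in replicate 2, and the lowest replicate 2 value of 9.39 FPKM was only just above the highest replicate 1 value of 9.37.

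In the JUN family, JUNB moved with genotype and JUN and JUND did not pass that test. JUNB, which can dampen the activity of JUN in some settings, stood at 47.9 and 86.8 FPKM in WT, 104 and 131 in clone 1#, and 88.2 and 117 in clone 2#. The groups did not overlap, although clone 2# replicate 1 lay close to WT replicate 2. JUNB was higher in MSX2_KO by 0.75 ± 0.13 on the log2(FPKM + 1) scale (SE, adjusted p = 0.0214 with the block and 0.315 without), and the ratio to the WT library of the same number ran from 1.35 to 2.17. It was also higher in replicate 2, by 0.53 ± 0.12 (SE, adjusted p = 0.0215). The genotype call for JUNB was kept without WT replicate 2 or clone 2# replicate 2 and lost without any of the other 4 libraries (adjusted p from 0.0531 to 0.124). The replicate call was lost without either WT library, clone 1# replicate 2 or clone 2# replicate 1 (adjusted p from 0.0679 to 0.0765). Annotated exons of HOOK2 lie on the opposite strand within JUNB and those of AC011446.2 within IER2, and since the use of strand is not given, their reads cannot be told apart.

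JUN, a partner of FOS proteins, followed the replicate number. It was at 91.6 and 109 FPKM in WT, 76.0 and 130 in clone 1#, and 78.5 and 136 in clone 2#. In replicate 1 both clones were below WT and in replicate 2 both were above it, so that the genotype difference over all libraries was 0.02 ± 0.12 on the log2(FPKM + 1) scale (SE, adjusted p = 0.931 with the block). JUN was higher in replicate 2 by 0.60 ± 0.11 (SE, adjusted p = 0.0112), with no overlap between replicate numbers.

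JUND, the JUN gene that is expressed at a high level without a stimulus, was split by replicate number without overlap. It stood at 230 FPKM in WT, 243 in clone 1# and 277 in clone 2# in replicate 1, and at 415, 398 and 427 FPKM in replicate 2. JUND was higher in replicate 2 by 0.73 ± 0.08 on the log2(FPKM + 1) scale (SE, adjusted p = 0.00197). The genotype difference was 0.08 ± 0.08 (SE, adjusted p = 0.575 with the block), and WT replicate 2 lay between the clones of its number.

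EGR1, a zinc finger transcription factor, went the other way between replicate numbers from the AP-1 genes that passed that test. Its values were 34.2 and 24.6 FPKM in WT, 102 and 32.1 in clone 1#, and 73.4 and 32.0 in clone 2#. EGR1 was lower in replicate 2 by a log2(FPKM + 1) difference of -1.09 ± 0.22 (SE, adjusted p = 0.0127). Every replicate 2 library was below every replicate 1 library, and the share of all genes with this order was not counted. Both clones were above WT within each number, at 2.98 and 2.15 times WT in replicate 1 and 1.30 times in replicate 2. The genotype difference of 0.84 ± 0.23 (SE) did not pass, with adjusted p = 0.0751 with the block and 0.628 without. It passed without WT replicate 2 (1.31, adjusted p = 0.0478), and without WT replicate 1 it was 0.37 (adjusted p = 0.359). The replicate call was lost without clone 1# replicate 2 (adjusted p = 0.0553) or without clone 2# replicate 2 (0.0543).

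ATF3, a stress-induced partner of JUN proteins, was the lowest of the 10. It was at 3.51 and 2.71 FPKM in WT, 5.83 and 4.21 in clone 1#, and 5.09 and 4.76 in clone 2#. All 4 clone libraries were above both WT libraries, and ATF3 was higher in MSX2_KO by 0.54 ± 0.12 on the log2(FPKM + 1) scale (SE, adjusted p = 0.0423 with the block and 0.304 without). The call was lost whichever library was left out, with adjusted p from 0.077 to 0.159. Each line had its lower ATF3 value in replicate 2, by a difference of -0.25 ± 0.11 that did not pass (SE, adjusted p = 0.131).

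IER2, a short immediate early gene without a bZIP domain, was level throughout. It stood at 198 and 196 FPKM in WT, 193 and 209 in clone 1#, and 175 and 212 in clone 2#. The log2(FPKM + 1) difference was -0.0012 ± 0.08 between genotypes (SE, adjusted p = 0.994 with the block) and 0.12 ± 0.07 between replicate numbers (SE, adjusted p = 0.223). The whole range over the 6 libraries was 175 to 212 FPKM.

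**Figure D2:**
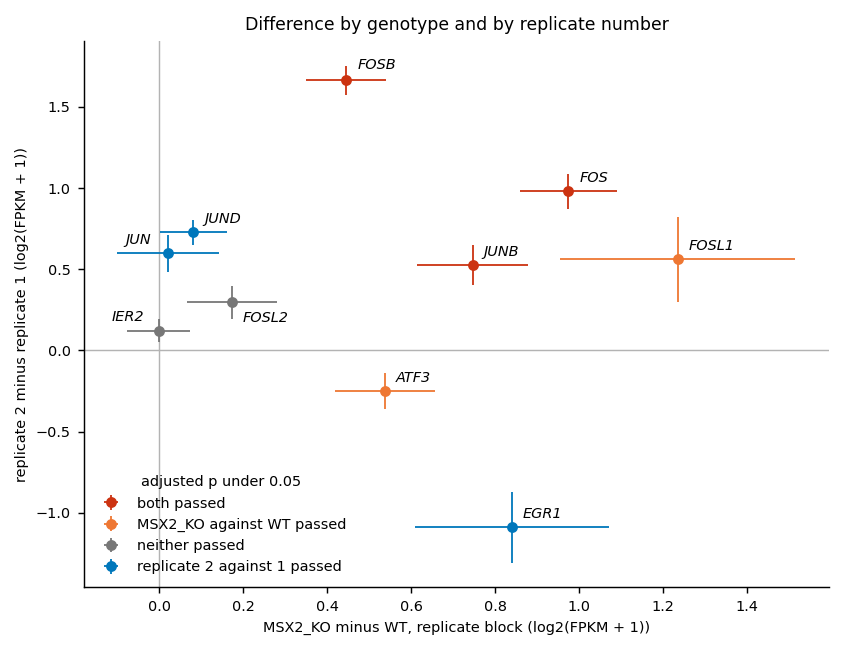
Difference between MSX2_KO and WT with the replicate block (horizontal axis) against the difference between replicate 2 and replicate 1 (vertical axis) for the 10 genes, both on the log2(FPKM + 1) scale, with bars of 1 SE and colours for the tests passed. FOS lies at 0.97 and 0.98, JUN and JUND lie near 0 on the horizontal axis, and EGR1 is far below 0 on the vertical axis at -1.09.

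Without the filter on low values, which adds many rows near 0, none of the 5 genotype calls with the block was kept, and the adjusted p were 0.0513 for FOS, 0.107 for FOSB, 0.172 for FOSL1, 0.105 for JUNB and 0.103 for ATF3. Of the 6 replicate calls, those of JUN, JUNB and EGR1 were lost in the same way (adjusted p = 0.0548, 0.0866 and 0.0676).

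Counted by position alone, 3 of the 10 genes (FOSL1, JUNB and ATF3) had every MSX2_KO library above both WT libraries, as 12.1% of all genes tested did. With each library set against the WT library of its own number, 6 of the 10 had all 4 clone libraries above (FOS, FOSB, FOSL1, JUNB, EGR1 and ATF3), against 23.6% of all genes tested. In 4 of the 10 (FOSB, FOSL2, JUN and JUND) every replicate 2 library was above every replicate 1 library, against 18.8%. The reverse order was found in 1 (EGR1), and its share over all genes was not counted. The median log2(FPKM + 1) difference of the 10 was 0.49 between genotypes and 0.54 between replicate numbers. The same medians over all genes tested were 0.0081 and -0.0344.

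In order of mean FPKM over the 6 libraries the genes ranked JUND (332), IER2 (197), JUN (103), JUNB (95.8), FOS (91.5), EGR1 (49.7), FOSB (38.0), FOSL1 (15.2), FOSL2 (9.79) and ATF3 (4.35). JUND was above IER2 and IER2 above JUN in all 6 libraries. The next places were not apart beyond their spread, since JUN was above JUNB in 3 of the 6 libraries, JUNB above FOS in 4, FOS above EGR1 in 4 and EGR1 above FOSB in 3. FOSB was above FOSL1 in all 6, FOSL1 above FOSL2 in 4, and FOSL2 above ATF3 in all 6.

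Summed over its 4 genes, the FOS family stood at 63.3 and 144 FPKM in WT, 113 and 233 in clone 1#, and 126 and 247 in clone 2#. The JUN family, summed over 3 genes, stood at 369 and 611 FPKM in WT, 423 and 659 in clone 1#, and 444 and 679 in clone 2#. Both sums were higher in replicate 2 in every line, and in each clone they exceeded the WT sum of the same number. The ratio of the FOS sum to the JUN sum was 0.171 and 0.236 in WT, 0.267 and 0.354 in clone 1#, and 0.283 and 0.363 in clone 2#, so every clone library was above both WT libraries on this ratio. FOS made up 53.1% to 67.2% of its family and JUND 57.5% to 68.0% of the JUN family. The FOSB share was 15.8% to 22.1% in replicate 1 and 26.2% to 32.6% in replicate 2, without overlap. These sums and ratios are mRNA levels and were not tested.

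**Figure D3:**
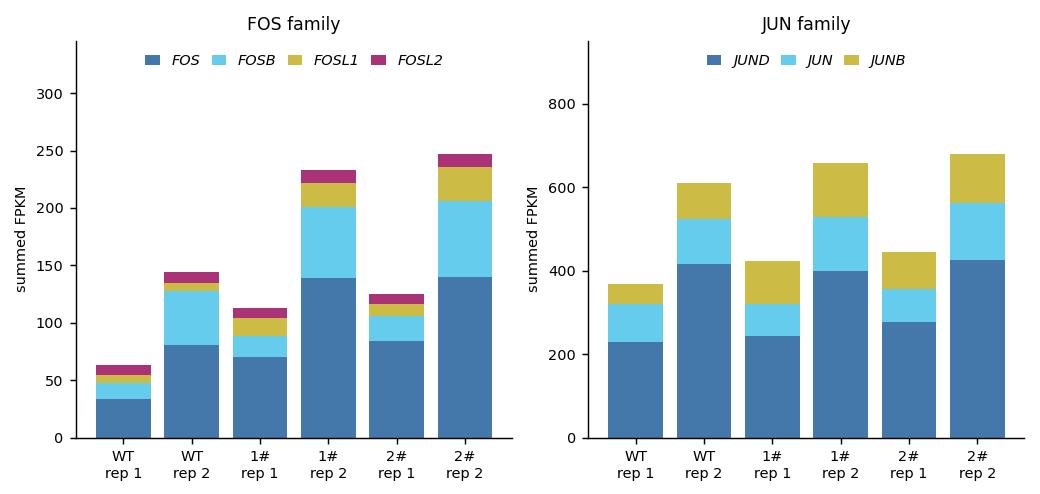
Summed FPKM (vertical axes, from 0) of the FOS family (left) and the JUN family (right) in each library, stacked by gene. The FOS family goes from 63.3 FPKM in WT replicate 1 to 247 in clone 2# replicate 2, and in each line the replicate 2 bar is the taller one in both families.

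Since each replicate number holds 1 WT and 2 clone libraries, the variation of a gene can be split into parts that add up to 100%. Replicate number took 94.9% of the sum of squares of JUND, 93.2% of FOSB and 84.6% of JUN. Genotype took 76.4% of ATF3, 65.5% of FOSL1 and 58.2% of JUNB. FOS was divided almost evenly, with 45.4% for genotype and 51.6% for replicate number, and EGR1 gave 30.1% and 56.9%. FOSL2 gave 19.7% and 64.3%, and IER2, which varied little in all, 0.00372% and 47.5%. In 7 of the 10 the share of the replicate number was the larger one, as in 63.6% of all genes tested. The median share of the 10 was 24.9% for genotype and 54.2% for replicate number, beside 15.2% and 42.7% over all genes tested. The part left over between the clones was 3.36% at the median, beside 8.71%.

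**Figure D4:**
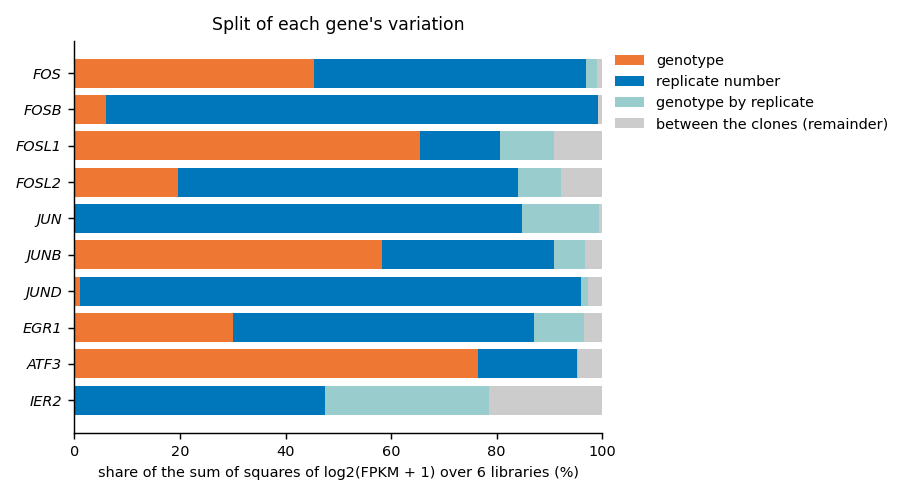
Share (%) of the sum of squares of log2(FPKM + 1) over the 6 libraries taken by genotype, replicate number, their interaction and the remainder between the clones, 1 bar per gene. JUND, FOSB and JUN are filled mainly by replicate number and ATF3, FOSL1 and JUNB mainly by genotype.

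Whether the replicate difference itself depended on genotype was tested with an interaction term, which has 2 residual degrees of freedom, both from the clones. None of the 10 passed, where 0.0189% of all genes tested did, and JUN and EGR1 had an unadjusted p under 0.05. The replicate difference of JUN was larger in MSX2_KO than in WT by 0.53 ± 0.10 on the log2(FPKM + 1) scale (SE, adjusted p = 0.333). That of EGR1 was more negative in MSX2_KO by -0.94 ± 0.29 (SE, adjusted p = 0.396). FOSL1 gave 0.97 ± 0.46 (SE, adjusted p = 0.494), JUNB -0.48 ± 0.19 (0.457) and FOS -0.40 ± 0.17 (0.479). With so few degrees of freedom these values do not show that the genotypes responded alike.

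A list of 40 other immediate early genes was set beside them. Of the 36 that passed the filter on low values, 14 were higher and 3 lower in MSX2_KO with the block, and 18 were higher and 5 lower in replicate 2. These are 47.2% and 63.9% of the list, beside 9.85% and 34.6% of all genes tested. The list was chosen with earlier results of these data known, so these shares are a description only. Without the block only ZFP36, whose product destabilises mRNAs, passed for genotype. The median log2(FPKM + 1) difference was 0.44 between genotypes and 0.48 between replicate numbers. NR4A1, a nuclear receptor, stood at 8.10 and 22.1 FPKM in WT, 45.0 and 109 in clone 1#, and 30.8 and 91.0 in clone 2#, higher in MSX2_KO by 2.10 (adjusted p = 0.00169 with the block) and higher in replicate 2 by 1.38 (adjusted p = 0.00219). The matricellular gene CCN1 and the kinase gene SGK1 were higher in MSX2_KO by 1.48 and 1.42. ARC, DUSP6 (an ERK phosphatase) and ZFP36L1 were lower in MSX2_KO by log2(FPKM + 1) differences of -1.20, -0.78 and -0.34. In replicate 2, MYC was higher by 1.37 and KLF4 by 1.37, whereas BTG2, ZFP36L1 and KLF10 were lower by differences of -1.18, -0.93 and -0.82. BTG2 resembled EGR1 in its fall between replicate numbers, at 28.0 and 10.1 FPKM in WT, 53.3 and 22.8 in clone 1#, and 47.6 and 23.9 in clone 2#. Unlike EGR1, BTG2 passed for genotype with the block, higher in MSX2_KO by 0.98 (limma, adjusted p = 0.00431). In replicate 2 its clones stood at 2.27 and 2.37 times WT, where those of EGR1 stood at 1.30 times.

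**Figure D5:**
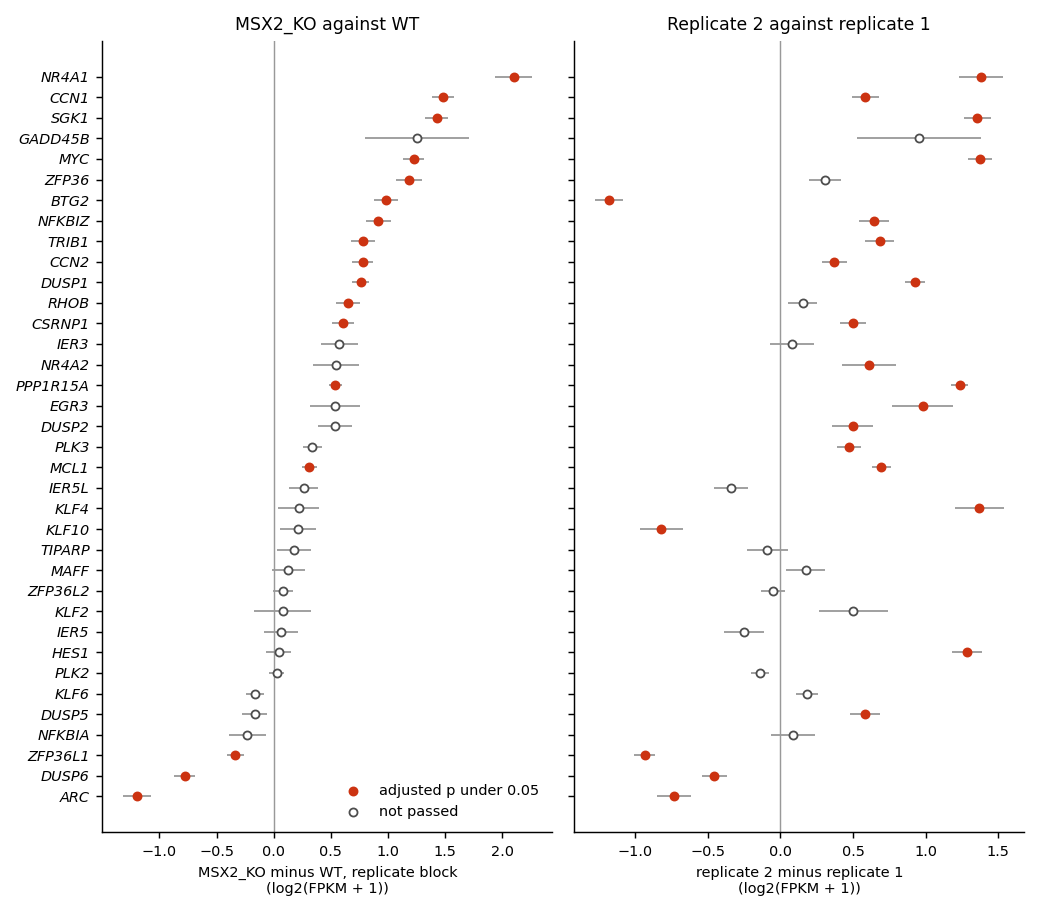
Log2(FPKM + 1) differences with bars of 1 SE for the 36 other immediate early genes tested, between MSX2_KO and WT with the replicate block (left) and between replicate 2 and replicate 1 (right), in the same order of genes. Filled points passed (14 higher and 3 lower on the left, 18 higher and 5 lower on the right), with NR4A1 at the top and ARC at the bottom.

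Among 12 tested of 13 other bZIP genes that pair with FOS or JUN proteins or bind the same elements, 1 was higher in MSX2_KO with the block and none was lower. That gene was JDP2, a repressor that pairs with JUN, higher by 0.81 on the log2(FPKM + 1) scale. In replicate 2, 4 were higher and 1 lower. The shares, 8.33% for genotype and 41.7% for replicate number, lie near those of all genes tested (9.85% and 34.6%), and nothing is read from them. ATF5 and DDIT3, genes of the amino acid and unfolded protein responses, were higher by 1.42 and 1.36 and CREM by 0.67, while BATF3 was lower by a difference of -0.59. ATF5 stood at 7.70 and 25.0 FPKM in WT, 7.12 and 18.0 in clone 1#, and 6.88 and 20.6 in clone 2#. Its WT values were thus not below those of the clones.

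Of 19 genes for kinases and factors upstream of AP-1, 1 was higher and 2 lower in MSX2_KO with the block, and 3 were higher and 3 lower in replicate 2. The shares were 15.8% and 31.6%, beside 9.85% and 34.6% of all genes tested. The first rests on 3 genes that went both ways and the second lies near that of all genes, so nothing is read from either. ELK1, which acts with serum response factor, was higher in MSX2_KO by 0.48, and ELK3 and MAPK3 (ERK1) were lower by log2(FPKM + 1) differences of -0.67 and -0.45. The ELK1 call was lost whichever of the 6 libraries was left out, and those of ELK3 and MAPK3 were lost in most of these fits. SRF, the serum response factor, was higher in replicate 2 by 0.60, MAP3K1 by 0.53 and MAPKAPK2 by 0.45. RPS6KA1, ELK4 and MAPK3 were lower by -0.88, -0.78 and -0.42. Their activity depends on phosphorylation, which RNA-seq does not measure.

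Of 16 genes known as targets of AP-1, 12 were tested, and 7 were higher and 1 lower in MSX2_KO with the block. CD44, a cell surface receptor, stood at 35.9 and 36.2 FPKM in WT, 121 and 130 in clone 1#, and 94.6 and 157 in clone 2#, higher by 1.75 on the log2(FPKM + 1) scale (adjusted p = 0.00226 with the block and 0.0172 without). EDN1, which encodes endothelin 1, was higher by 1.72 (adjusted p = 0.00494 with the block and 0.0385 without). MMP9, a matrix metalloproteinase, was lower by a difference of -1.21. Between replicate numbers 4 were higher and 2 lower. The shares were 66.7% for genotype and 50% for replicate number, beside 9.85% and 34.6% of all genes tested. CCND1, which encodes cyclin D1, was higher in replicate 2 by 1.32 and PLAUR by 0.53, while PLAU and SPP1 were lower by -1.32 and -0.996. MMP3 and MMP10 were listed at 0 in all 6 libraries. The targets were named from general knowledge, with earlier results of these data known, so these shares are a description only. Binding of AP-1 was not measured.

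Over all lists, 27 genes outside the 10 met the rule for naming by genotype and 37 by replicate number. The genotype call held in all 6 fits with a library left out for 12 of the 27, among them NR4A1, CCN1, SGK1, ARC, DUSP6 and CD44, and the replicate call held in all 6 for 27 of the 37. The 15 genes whose genotype call was lost in at least 1 of those fits were ZFP36L1, JDP2, ELK1, ELK3, MAPK3, EDN1, MMP9, HSPD1, HSP90AA1, MT-ATP6, TEK, CDH5, SPN, PDGFRB and LIN28A. Among the 10 that lost the replicate call were BATF3, MAP3K1, ELK4, PLAUR, SPP1, HSPH1, KDR, ACTA2 and DNMT3B.

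Lists for stress and for other cell types were checked in the same fits, and their part in the results was not tested. Beside 9.85% of all genes tested for genotype with the block and 34.6% for replicate number, the shares that passed were 20% and 40% of the heat shock genes and 7.69% and 30.8% of the mitochondrial ones. Those of the mitochondrial genes lie near the shares of all genes, and nothing is read from them or from the 40% of the heat shock genes. The shares were 80% and 30% of the endothelial markers and 50% and 25% of both the blood cell and the stromal markers. These 3 lists thus stood above all genes for genotype. They were chosen with earlier results of these data known, so this is a description only. Their shares for replicate number lie near that of all genes, and nothing is read from those. Of 10 tested heat shock genes, 2 were higher in MSX2_KO with the block (HSPD1 by 0.34 and HSP90AA1 by 0.28), and 4 were higher in replicate 2, with DNAJA1 by 0.73, HSPA8 by 0.47 and HSPH1 by 0.43. HSPA1A and HSPA1B were listed at 0 in all 6 libraries. The summed FPKM of the list was 2546 and 2996 in WT and 2786 to 3312 in MSX2_KO. Of the 13 genes of the mitochondrial genome, MT-ATP6 was higher in MSX2_KO by 0.21. In replicate 2, MT-ND2 was higher by 0.34, and MT-ND6, MT-ND5 and MT-ND4 were lower by -1.04, -0.66 and -0.27. Their sum was 29121 FPKM in WT replicate 1 and 27652 in WT replicate 2, against 28683 to 33519 in MSX2_KO.

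All 10 endothelial markers were tested, and 8 were lower in MSX2_KO with the block. The tight junction gene CLDN5 was lower by a log2(FPKM + 1) difference of -2.28, TEK by -0.84 and CDH5 by -0.65, and the list summed to 2542 and 2662 FPKM in WT and 1587 to 1945 in MSX2_KO. In replicate 2, ERG was higher by 0.80, ESAM by 0.64 and KDR by 0.27. Of 8 blood cell markers tested of 10, 4 were higher in MSX2_KO, among them GYPB by 1.60 and SPN by 0.81, and the list summed to 87.4 and 117 FPKM in WT and 162 to 199 in MSX2_KO. VAV1 and SPI1 were higher in replicate 2 by 0.65 and 0.59. Of 8 stromal markers tested of 10, 4 were higher in MSX2_KO, with COL1A1 by 2.30, TAGLN by 1.94 and PDGFRB by 1.36. COL3A1 and COL1A2 went the other way without passing, by differences of -0.54 and -0.07. The list summed to 279 and 337 FPKM in WT and 500 to 575 in MSX2_KO. COL1A1, with means of 41.8 FPKM in WT and 198 in MSX2_KO, and TAGLN, with 24.4 and 91.0, carried most of that rise. PDGFRA and ACTA2 were lower in replicate 2 by -0.96 and -0.30. COL1A1, TAGLN and PDGFRB, the 3 of the 8 tested with a positive difference, went the other way without passing, by 0.35, 0.32 and 0.20. No marker of these 3 lists was at 0 in all 6 libraries, but PTPRC, which encodes the blood cell antigen CD45, did not exceed 0.115 FPKM. In bulk RNA a change in the share of a cell type cannot be told apart from a change in RNA per cell. Of 5 pluripotent cell markers 3 were tested. LIN28A was higher in MSX2_KO by 0.45 and in replicate 2 by 0.46, and DNMT3B was higher in replicate 2 by 0.24. POU5F1 went the other way between replicate numbers without passing, by -1.07 (limma, adjusted p = 0.0534). DNMT3B went the other way between genotypes without passing, by -0.06. The shares that passed were 33.3% for genotype and 66.7% for replicate number, beside 9.85% and 34.6% of all genes tested. They rest on 3 genes, so nothing is read from them. NANOG and SOX2 were below the filter.

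Among 13709 genes outside the 10 with a mean log2(FPKM + 1) of at least 1, the closest to FOS over the 6 libraries were GP1BA (Pearson r = 0.9996), MRPL58 (0.999), LIN28A (0.9978), ABHD16A (0.9978) and SPI1 (0.9951). GP1BA, a platelet glycoprotein gene, stood at 3.16 and 7.17 FPKM in WT, 6.24 and 11.7 in clone 1#, and 7.29 and 11.4 in clone 2#. GP1BA repeated the order of FOS except in the replicate 2 clone libraries, where clone 1# was the higher for GP1BA and the clones were nearly equal for FOS. Both WT values of GP1BA were lowest within their number. The genes closest to the mean profile of the 10 were TSPOAP1-AS1 (0.9996), BCL2L1 (0.9992), TMBIM1 (0.9985), CMIP (0.9982) and GFI1B (0.9979). With 6 libraries that share 2 replicate numbers, r values this high are found among many candidates, and they are given as a description.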

How the data were processed

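RNA-seq of day 8 cells from H1 gave 6 libraries, 2 WT and 4 MSX2_KO. The authors deposited FPKM values, 1 column per library with replicates not pooled, in a table of 58364 rows with values. The submitters' processing notes name BWA, Bowtie, RSEM and hg19, and the series text names TopHat, Cufflinks and an ANOVA. Versions, annotation and the use of strand are not given in the sources used here. The labels number the clones 7 and 10 but the columns call them 1# and 2#, so the clones carry the columns' names and their libraries are known to the group only. FPKM holds no depth, so low genes are less certain by an unknown amount.

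From these values log2(FPKM + 1) was computed, 15895 rows with a mean of at least 0.5 FPKM were kept, and limma 3.58.1 (R 4.3.3) was fitted with a trend of the variance on the mean, and p-values were adjusted after Benjamini and Hochberg (threshold 0.05). Comparisons were MSX2_KO against WT, replicate 2 against replicate 1 with a genotype term, and their interaction. The main genotype fit had no block, and the fit blocked on the replicate number was its alternative. Differences on this scale understate changes of low genes. The numbers pair the samples: the replicate difference of WT correlated with that of clone 1# at r = 0.5077 across genes and of clone 2# at 0.5398, and the clones with each other at 0.6365. The code was tested on simulated data.

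The 10 genes and 10 further gene lists were chosen with earlier results of these data known. Named were the 10 genes, MSX2, up to 3 genes per list, direction and comparison with an adjusted p under 0.05 and the largest change (the replicate-block fit for genotype), and the 5 genes most like FOS and like the mean profile. PECAM1, BTG2 among the profiles shown, ZFP36, PTPRC, NANOG, SOX2 and genes listed at 0 were named after their values were seen. Some genes that the rule names are not reported here. Alternatives were the pseudocount, the filter, rescaling, the trend, 3 groups, each clone alone, and leaving out each library. Those combining the block with another pseudocount, filter, scaling or trend or with 3 groups were chosen after seeing the data. Promoters came from RefSeq (GRCh38.p14), and overlaps from GENCODE 29 on GRCh38.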

Additional observations from a re-analysis of the deposited data

Results flagged for a closer look

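For 3 of the 10 genes a difference had opposite signs in the groups compared. FOSL1 was lower in replicate 2 than in replicate 1 in WT and higher in both clones, an interaction of 0.97 on the log2(FPKM + 1) scale. JUN was below WT in both clones of replicate 1 and above WT in both clones of replicate 2, an interaction of 0.53. IER2 did both, with an interaction of 0.21. The interaction test passed for none of them (limma, adjusted p = 0.494 for FOSL1, 0.333 for JUN and 0.55 for IER2), and the WT side of each rests on 1 library per replicate number. Groups of 4 libraries (MSX2_KO) were checked for a library far from the others, and none was found in the 10 genes.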

How the results depend on the processing

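Without the block, none of the 10 genes had a genotype call under any alternative (limma, 1 to 3 of the 10 at an unadjusted p under 0.05). Over all genes, 204 calls became 125 with no filter on low values, 6 with WT and the clones as 3 groups, 1 for clone 1# alone, 1 for clone 2# alone, and 11 to 76 with a library left out. The replicate block gave 1566 calls and 5 of the 10 genes. Blocked fits of 1 clone gave 550 calls and 2 of the 10 (FOS and JUNB) for clone 1#, and 590 calls and 1 of the 10 (FOS) for clone 2#.

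With the replicate block as the base, no filter on low values gave 507 calls and 0 of the 10 genes, no trend 3 of the 10, and 3 groups 1003 calls and 3 of the 10. Leaving out a library gave 665 to 899 calls and 0 to 3 of the 10, with 0 without WT replicate 1. In both fits with 0 of the 10, 6 of the 10 had an unadjusted p under 0.05. FOS was kept without each of the other 5 libraries. These fits leave 1 WT library or 1 library of a clone, which is assumed to vary like the others. A pseudocount of 0.1, a filter at 1 FPKM and rescaled libraries kept all 5.

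Differences that changed sign all belonged to calls that did not pass, apart from FOSB and ZFP36L1, which passed with the block and kept their sign in it. Rescaling gave JUN -0.0031 with and without the block. Clone 1# alone gave JUN -0.0069 and IER2 0.0299, blocked or not. With a library left out and no block, FOSB ran from -0.39 to 1.29, JUN from -0.12 to 0.16, JUND from -0.34 to 0.51, IER2 from -0.036 to 0.055 and ZFP36L1 from -0.77 to 0.10. With the replicate block JUN ran from -0.24 to 0.29, JUND from -0.011 to 0.17 and IER2 from -0.11 to 0.10.

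Between replicate numbers no difference of the 10 genes changed sign. No filter gave 3593 calls and 3 of the 10, and no genotype term 3112 calls and 3 of the 10 (FOSB, JUN and JUND). A library left out gave 3091 to 4707 calls, 4 to 6 of the 10 and a median of 0.41 to 0.59. For the interaction, the 3 calls became 0 with a pseudocount of 0.1, 693 with no filter, 13 with no trend, 0 with a clone term and 0 with a library left out (limma, 1248 to 1817 genes at an unadjusted p under 0.05 in the fits with 0). With a library left out FOSB ran from -0.15 to 0.099 and ATF3 from -0.038 to 0.13. Why these values moved was not tested. Summing rows gave no other value, as each gene stood on 1 row. Library depth is unknown, and a mean of FPKM near the filter is the least certain.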
